A study of Mus musculus with 6 samples.

Results

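Divergent gene pairs are neighbouring genes that are read away from each other from start sites lying close together on opposite strands, so that a single promoter region serves both. They were taken from the 18778 genes named in the authors' nearest-gene tables as every combination in which the start site of a minus-strand gene lay 1 to 1000 bp before that of a plus-strand gene. The rule gave 1178 pairs from 2314 genes (12.3% of the genes), and the other 16464 genes stood in no such pair. Both genes had a symbol in 787 pairs, and in 542 of these both symbols were gene names rather than predicted, clone, microRNA or antisense names. In 391 pairs at least 1 gene had no symbol and is called an unnamed gene here. A pair is written with its minus-strand gene first (Brca1/Nbr1), and its region is the interval between the start sites with 1 kb on each side.

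The cells were neural stem cells (NSCs) of mouse strain C57BL/6, derived from embryonic stem cells and sampled at differentiation day 0, RedStar negative, and neurons grown from NSCs and sampled at day 11. The neurons spent 4 days in a first medium and 7 days in a second, and were sorted for RedStar, a fluorescent reporter under the promoter of Tau (Mapt), so the sort selects for activity of that promoter. All cells were at passages 25 to 30. Each cell type has 1 library for H3K4me3 (Active Motif antibody), 1 for H3K27me3 (Upstate antibody) and 1 input, so no difference below has a replicate check and no test was made.

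H3K4me3 is a histone mark laid down around the start sites of active and poised genes, mostly on promoters rich in CpG dinucleotides. H3K27me3 is laid down by Polycomb repressive complex 2 and covers silenced developmental genes. Where both marks lie on a promoter it is called bivalent. Mammalian divergent promoters are mostly CpG-rich, have few TATA boxes, and often drive housekeeping genes, DNA repair and mitochondrial genes prominent among them.

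The stretch between the start sites is short enough to print. The following 7 intervals were read on the plus strand from the RefSeq promoter table of build GRCm38.p6, each from 1 base after the minus-strand start to 1 base before the plus-strand start, and each was identical to the reverse complement of the partner's entry. They are shown because they carry both genes' promoter and stand for the states described below: kept H3K4me3 (Brca1/Nbr1, Mrps12/Sars2, Sdhd/Timm8b), very dense H3K4me3 (Trove2/Uchl5), both marks (Psmb9/Tap1) and H3K4me3 in NSCs only (Pqbp1/Timm17b, Mtcp1/Brcc3). Capitals mark matches, on either strand, to the short motifs named in the next paragraph. RefSeq and the deposited tables place start sites differently, so the Brca1/Nbr1 interval here has 151 bases against a gap of 194 bp in the tables. In GRCm38.p6 the intervals lie at chr11:101551956-101552106 (Brca1/Nbr1), chr7:28741822-28741967 (Mrps12/Sars2), chr9:50603850-50603900 (Sdhd/Timm8b), chr1:143777052-143777277 (Trove2/Uchl5), chr17:34187331-34187555 (Psmb9/Tap1), chrX:7899270-7899335 (Pqbp1/Timm17b) and chrX:75416585-75416627 (Mtcp1/Brcc3).
Brca1/Nbr1: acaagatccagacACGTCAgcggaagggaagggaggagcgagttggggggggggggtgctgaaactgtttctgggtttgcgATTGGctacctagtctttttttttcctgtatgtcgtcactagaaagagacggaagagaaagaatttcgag
Mrps12/Sars2: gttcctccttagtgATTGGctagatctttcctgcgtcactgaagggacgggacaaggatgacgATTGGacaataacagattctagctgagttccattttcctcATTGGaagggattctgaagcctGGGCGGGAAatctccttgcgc
Sdhd/Timm8b: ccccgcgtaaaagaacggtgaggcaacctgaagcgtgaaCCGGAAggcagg
Trove2/Uchl5: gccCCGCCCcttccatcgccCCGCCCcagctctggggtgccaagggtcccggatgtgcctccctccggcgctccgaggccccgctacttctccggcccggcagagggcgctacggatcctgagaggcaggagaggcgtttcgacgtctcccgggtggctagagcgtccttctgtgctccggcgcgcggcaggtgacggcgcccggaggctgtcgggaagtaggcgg
Psmb9/Tap1: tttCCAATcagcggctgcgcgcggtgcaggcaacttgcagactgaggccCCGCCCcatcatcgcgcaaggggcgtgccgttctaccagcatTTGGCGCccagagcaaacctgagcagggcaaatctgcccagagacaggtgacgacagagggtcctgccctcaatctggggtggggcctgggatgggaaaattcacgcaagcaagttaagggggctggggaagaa
Pqbp1/Timm17b: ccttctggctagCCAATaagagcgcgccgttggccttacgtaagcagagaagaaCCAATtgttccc
Mtcp1/Brcc3: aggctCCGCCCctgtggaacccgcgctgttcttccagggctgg

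The motifs searched were CCGGAA (the ETS core), GCATGCG (part of the NRF1 site), CCAAT (the NF-Y box), GGGCGG (the SP/KLF box), AAGATGG (part of the YY1 site), TATAAA (the TATA box), TGACGT (part of the CRE), and TTGGCGC and TTCCCGC (forms of the E2F site), on both strands. In the Mrps12/Sars2 interval an SP/KLF match and an E2F match overlap. Of 1912 pair genes with a symbol, 1537 (80.4%) matched an entry of the RefSeq table, giving 1535 different promoters of 300 bases, 250 before the start site and 50 after it. The ETS core was in 40.9% of these promoters and in 15.2% of all 27025 promoters of the table. The SP/KLF box was in 69.3% against 35.9%, the CRE part in 17.2% against 7.64%, the NRF1 part in 7.95% against 3.64% and the YY1 part in 9.32% against 6.48%. The E2F forms were in 6.32% and 10.9% against 2.54% and 4.66%, the CCAAT box was in 43.5% against 37.9%, and the TATA box ran the other way, in 5.08% against 14.2%. The table as a whole includes silent genes, so these contrasts do not set pairs apart from other marked genes. The ratio of observed to expected CpG had a median of 0.857 in pair promoters and 0.389 in all promoters. Windows of partners overlap, so partners often share a match. Genes in no pair matched in 76.8% of those with a symbol, and in 78.3% of those that also had NSC H3K4me3, under the 80% needed, so a comparison with them is void and not given.

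The label of the cells was checked on start sites within 1 kb of a peak. Of 12 NSC marker genes, 10 had H3K4me3 in NSCs and 10 in neurons, and of 10 tabulated neuron markers it lay at 4 in NSCs and 5 in neurons. Of 6 astrocyte markers 4 had it in NSCs and 3 in neurons, and 2 microglia markers had it in neither. In each cell type it lay at 1 of 2 oligodendrocyte, 1 of 2 pluripotency and 1 of 4 mesenchymal markers. Of 3 endothelial markers 1 had it in NSCs and 0 in neurons. These small counts are nearly alike in NSCs and neurons, so they do not tell the cell types apart. None of these marker genes is in a divergent pair. Reads inside peaks numbered 3623654 in 30416 NSC H3K4me3 peaks, 983266 in 14846 neuron H3K4me3 peaks, and 3161819 to 3272324 in the H3K27me3 libraries. Where H3K4me3 peaks had the same bounds in both cell types at a pair (31 peaks), the summed neuron reads were 0.351 times, and the input reads 0.838 times, those in NSC peaks. The neuron H3K4me3 list is thus shorter and thinner, and its part in the differences between cell types below was not tested.

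The gaps between start sites were mostly short. The median gap was 162 bp (quartiles 87.25 and 300.75 bp), 354 pairs lay within 100 bp, and 883 of 1178 within 300 bp. Combinations of divergent start sites fell from 1178 at 1 to 1000 bp to 131 at 1001 to 2000 bp and 74 at 2001 to 3000 bp. The smallest gaps between named genes were 3 bp in Ndufs1/Eef1b2 (a complex I subunit and a translation elongation factor), 5 bp in Cct5/Fam173b (Cct5 is a chaperonin subunit) and 9 bp in Eif2b1/Gtf2h3 (a translation initiation factor subunit and a TFIIH subunit). Pairs were found on 20 chromosomes, most on chromosome 11 (107), with 22 on X and 0 among the 6 genes on Y. Another 681 combinations had start sites that overlapped by up to 1000 bp and are not members. Just inside the limit, 36 of 38 pairs with gaps of 801 to 1000 bp had NSC H3K4me3, and just outside it 28 of 30 combinations at 1001 to 1200 bp had it.

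**Figure D1:**
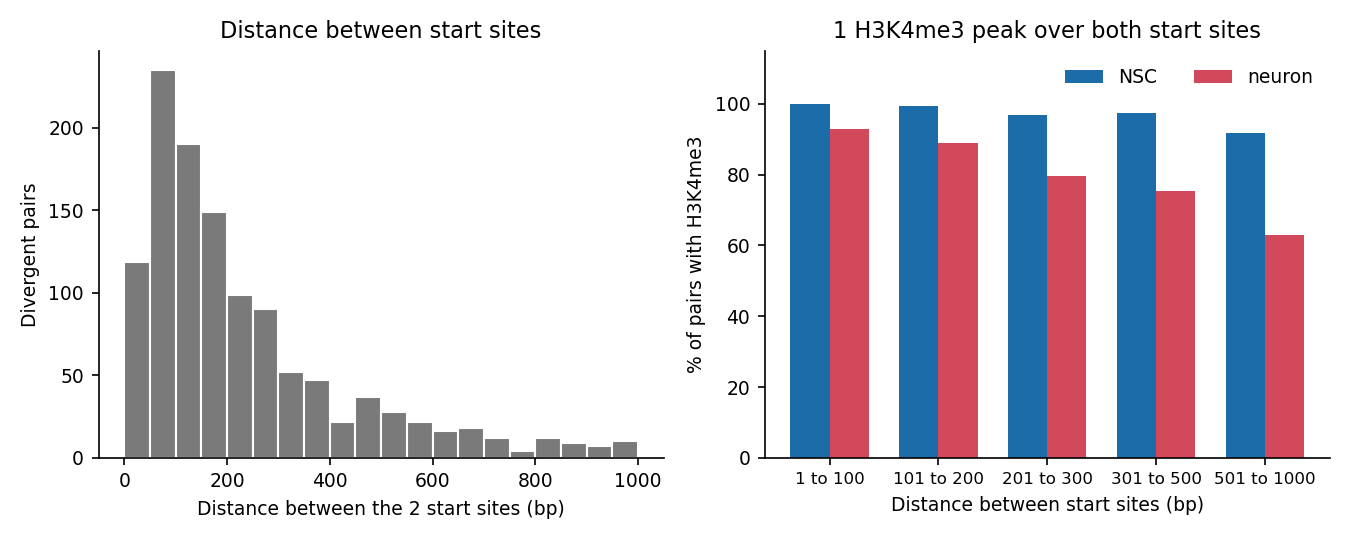
Left, number of divergent pairs by distance between start sites, in bins of 50 bp. Right, of the pairs with H3K4me3, the percent with a single peak over both start sites, by distance, in NSCs and neurons; NSC bars start at 100% and end at 91.7%, neuron bars start at 93.0% and end at 62.8%.

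At the deposited FDR, H3K4me3 lay at nearly every pair in both cell types. In NSCs 1150 of 1178 regions had it (97.6%, exact Clopper-Pearson 95% interval 96.6 to 98.4), and in neurons 1108 (94.1%, 92.6 to 95.3). With peaks held to an FDR under 1e-20, 1137 regions (96.5%) had it in NSCs but only 851 (72.2%) in neurons. All 18778 start sites, scored within 1 kb, had it in 70.4% in NSCs and 61.7% in neurons. With the same window around each start site, 97.7% of pair genes had NSC H3K4me3 against 66.6% of genes in no pair (76.8% of those with a symbol). In neurons the shares were 94.0%, 57.1% and 66.8%. The exact intervals do not overlap between pair genes and either set, but they cover counting error only. Partners mostly share a peak and are not independent, so the intervals of pair genes are too narrow and their separation is no test. In pairs of named genes 541 of 542 had the mark in NSCs and 531 in neurons, and with an unnamed gene 368 and 346 of 391 had it. Genes enter the tables through a peak, and a pair needs both of its genes in them, so these are shares of tabulated genes and not of the genome.

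**Figure D2:**
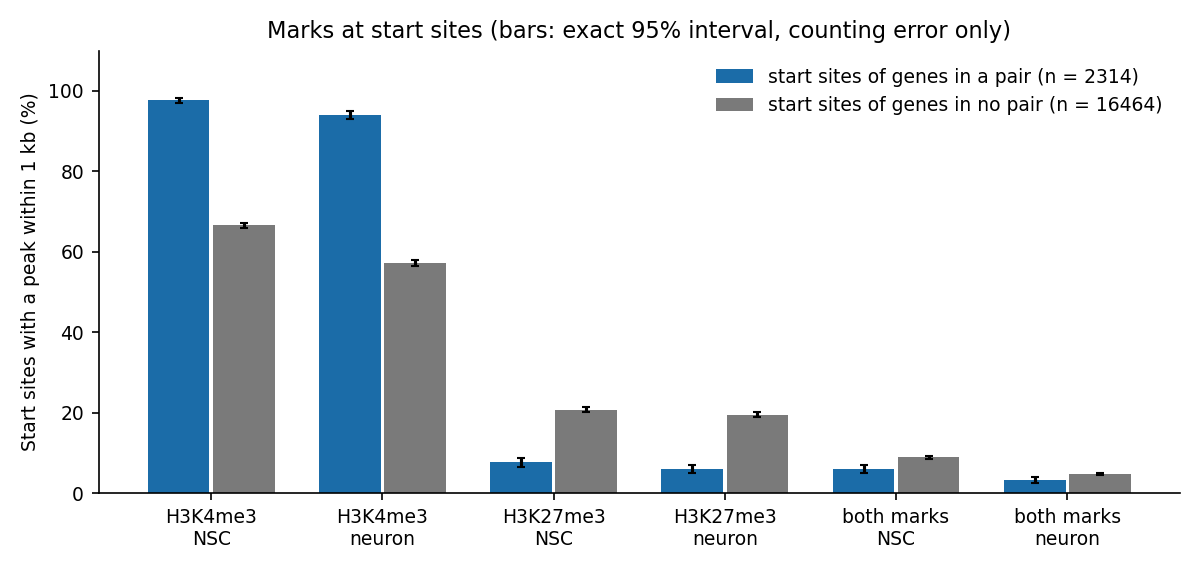
Percent of start sites with a peak within 1 kb, for genes in a pair (n = 2314) and in no pair (n = 16464), by mark and cell type, with exact 95% intervals. The intervals treat partners as independent and are too narrow for pair genes. Pair genes stand at 97.7% and 94.0% for H3K4me3, against 66.6% and 57.1%, and lower than other genes for H3K27me3.

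A single H3K4me3 peak usually covered both start sites. In NSCs that held for 1127 of 1178 pairs (95.7%), while 2 pairs had a separate peak at each start site and 15 had a peak at 1 start site only. Neurons had such a peak over 930 pairs (78.9%), separate peaks at 2, a peak at 1 start site only at 99, and a peak in the region but at neither start site at 77. Of the pairs with neuron H3K4me3, the share under a single peak was 93.0% with gaps up to 100 bp, 89.0% at 101 to 200 bp, 79.7% at 201 to 300 bp, 75.3% at 301 to 500 bp and 62.8% at 501 to 1000 bp. The corresponding NSC shares were 100%, 99.4%, 96.7%, 97.4% and 91.7%. Both cell types thus had the lowest share at the longest gaps, with a wider range in neurons. Peaks were called in steps of 200 bp and the median gap was 162 bp, so separate peaks could hardly be called at close pairs. The median NSC pair peak was 2600 bp wide, so a peak over 1 start site would mostly reach the other. A longer gap is also harder to span for a peak of a given width. These counts describe the calls and do not test whether a promoter is shared.

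Of the 1127 pairs under a single NSC peak, 924 were so in neurons, 90 had a neuron peak at 1 start site, 70 at neither start site though in the region, and 42 had none. The 90 pairs had a median gap of 370.5 bp and a median NSC density of 94.4 reads per kb of peak, against 146 bp and 113 reads per kb in the 924. In 36 of the 90 exactly 1 gene had a symbol, and in 27 of these (75%) that gene's start site was the covered one. Cramp1l/Ift140 (Ift140 is a subunit of the ciliary transport complex IFT-A) had a 4400-bp NSC peak with 674 reads over both start sites and a 2200-bp neuron peak with 125 reads at Cramp1l. In Obsl1/Inha (a cytoskeletal linker and the inhibin alpha subunit), the NSC peak had 321 reads over both and the neuron peak 136 reads at Obsl1. In Cep57/Fam76b (Cep57 is a centrosomal protein) 545 NSC reads lay over both and 122 neuron reads at Cep57. Each of these 3 pairs had a gap of 609 to 865 bp. Phlpp1, an Akt phosphatase with an unnamed partner 228 bp away, had 858 NSC reads over 8800 bp and 248 neuron reads over 4200 bp that covered Phlpp1 only. Single-sided peaks in both cell types were seen at Tas1r1/Nol9, at Nol9, a ribosomal RNA processing kinase (285 and 60 reads), and at Mtx1/Thbs3, at Mtx1, a mitochondrial import protein (270 and 53 reads), so that the taste receptor gene Tas1r1 and the thrombospondin gene Thbs3 lay outside the peak.

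At pairs the single peaks were less lopsided than peaks at other genes, though most had a longer side. In NSCs they ran a median of 1213 bp (quartiles 897.5 and 1605) past the start site into the minus-strand gene and 1195 bp (901 and 1585) into the plus-strand gene; the strand is arbitrary, so these medians say nothing of balance within a pair. At genes in no pair the peak over the start site ran a median of 1396 bp downstream and 745 bp upstream, and was longer downstream in 81.9% of 10354. Either side of a pair peak was thus longer than the upstream side, and shorter than the downstream side, of peaks at other genes. The shorter side was 63.0% of the longer in the median pair and 46.5% at other genes. In neurons the medians were 974 and 958 bp at pairs and 1162 and 502 bp at other genes, and the shorter side was 58.2% and 37.0% of the longer. The median NSC peak was 2600 bp wide at these pairs and 2200 bp wide at other genes, and the neuron peaks measured 2200 and 1800 bp. A pair peak counted here must span the gap, and less the gap the pair medians were 2490 bp in NSCs and 1983 bp in neurons. Pair peaks that missed a start site are left out, which also bears on the comparison of sides.

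**Figure D3:**
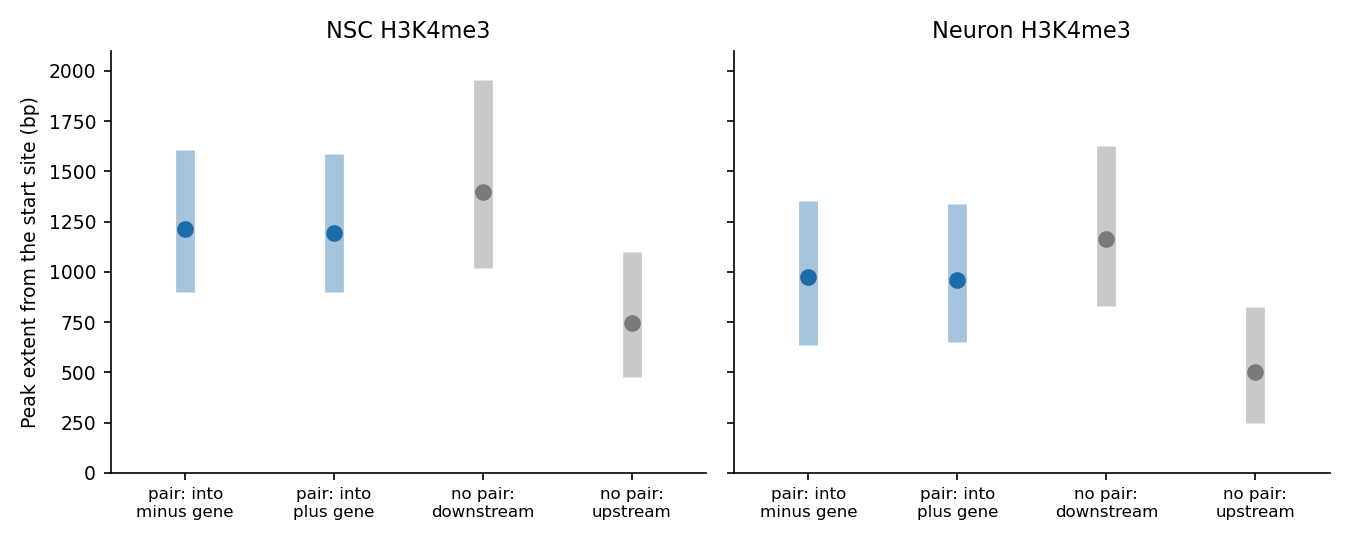
Distance in bp from a start site to the edge of the H3K4me3 peak that covers it, in NSCs (left) and neurons (right). Points are medians and bars run between the quartiles; for pairs under a single peak both directions are downstream of a gene (medians 1213 and 1195 bp in NSCs), and for genes in no pair the downstream and upstream sides are shown apart (1396 and 745 bp).

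Within pairs the sides often differed. Where exactly 1 gene of the pair had a symbol, the NSC peak ran a median of 1443.5 bp into that gene and 876.5 bp into the unnamed partner, and the named side was the longer in 295 of 348 pairs (84.8%). In neurons the medians were 1229 and 596 bp, and the named side was longer in 216 of 263 (82.1%). At genes with a symbol in no pair the peak was longer downstream in 84.8% of 9321 in NSCs and 86.5% of 7155 in neurons. The lean toward the named gene was thus near that at single genes. In pairs of named genes the 2 NSC medians were 1236 and 1265 bp and the shorter side was 69.5% of the longer. In the 924 pairs under a single peak in both cell types, the neuron peak reached a median of 200 bp less far on each side, the width of 1 step of the caller. Both sides were shorter in neurons in 445 of these pairs, 1 side in 361 and neither in 118. At genes in no pair the median difference was also 200 bp on each side.

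NSC peaks at pairs were denser in reads than NSC peaks at other start sites. The 1110 NSC H3K4me3 peaks at pairs had a median of 110 reads per kb (quartiles 90.6 and 127), against 94.2 (71 and 114) in peaks at genes in no pair and 28.6 in peaks at no start site. In neurons the medians were 45, 41.6 and 26.9 reads per kb. Input reads per kb had medians of 10.7, 10.4 and 10 in NSCs and 9.67, 9 and 9.38 in neurons. The authors' fold over input had a median of 10.3 at pairs and 9.11 at genes in no pair in NSCs, but 4.64 and 4.62 in neurons, so the neuron peaks at pairs did not stand higher over input. The deposited false discovery rate was under 1e-20 for 98.7% of NSC pair peaks and 76.0% of neuron pair peaks, against 93.0% and 60.4% at other genes.

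The densest NSC peak over a pair of named genes was at Dcaf6/Brp44, a ubiquitin ligase substrate receptor and a subunit of the mitochondrial pyruvate carrier, with 713 reads over 3400 bp in NSCs and 245 over 4000 bp in neurons. Ncapd2/Mrpl51, a condensin subunit and a mitochondrial ribosomal protein, had 586 and 154 reads, both over 3000 bp. Trove2/Uchl5, an RNA-binding protein and a proteasome-bound deubiquitinase whose interval is printed above with a pair of SP/KLF matches, had 598 and 223 reads, both over 3200 bp. These peaks kept or exceeded their NSC width in neurons. Tmem111/Fancd2, which holds a Fanconi anaemia repair gene, had 386 reads over 2000 bp and 111 over 1200 bp, and Tfb2m/Cnst (Tfb2m is a mitochondrial transcription factor) 475 and 211 reads, both over 2600 bp.

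The widest NSC peaks over named pairs were at Gt(ROSA)26Sor/Setd5, the Rosa26 transgene locus and a chromatin regulator (9800 bp in NSCs, 7000 bp in neurons), Spry4/Arhgap26, whose Spry4 restrains growth factor signalling (9400 and 3600 bp), Pusl1/Acap3 (7200 and 5600 bp), Hnrnpa2b1/Cbx3, an RNA-binding protein and a heterochromatin protein (7200 and 6000 bp), and Thap2/Zfc3h1 (6200 and 5200 bp). All 5 were narrower in neurons. Among all 1105 pairs with H3K4me3 in both cell types the neuron peak was narrower at 880, equal at 82 and wider at 143.

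**Figure D4:**
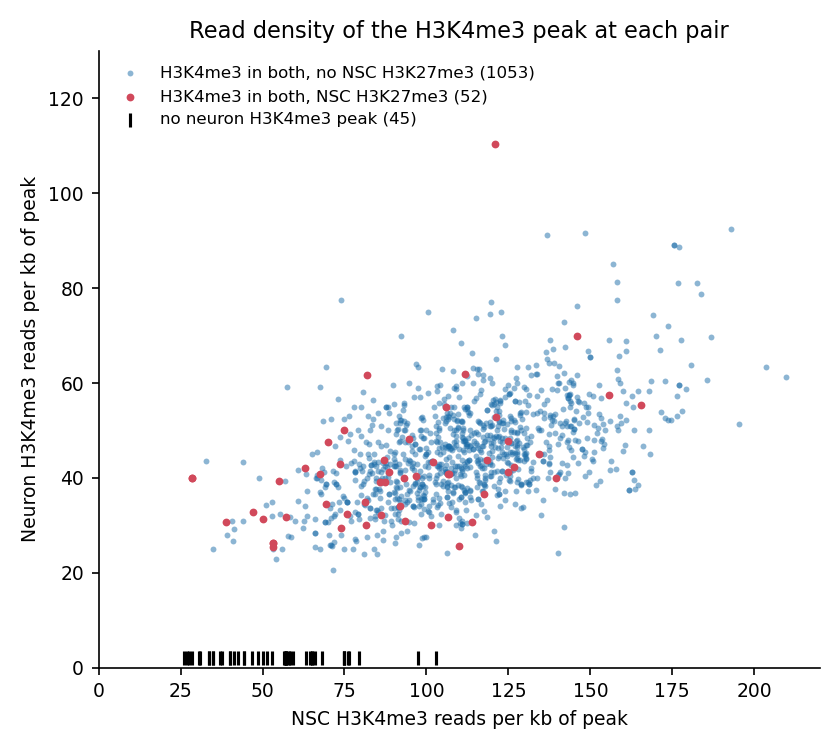
H3K4me3 reads per kb of peak at each pair in NSCs (horizontal) and neurons (vertical). Points are the 1053 pairs with H3K4me3 in both cell types and no NSC H3K27me3 and the 52 that had NSC H3K27me3; ticks at the foot are the 45 pairs with no neuron peak, which sit at the low end of NSC density (median 53 reads per kb against 111).

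Genes of the maintenance of the genome and of the cell's basic machinery were often members. Of 141 tabulated DNA repair and replication genes 48 (34.0%) stood in a pair, and so did 29 of 100 mediator, TAF and RNA polymerase genes, 22 of 76 splicing genes (28.9%), 26 of 91 respiratory chain genes (28.6%) and 21 of 76 mitochondrial ribosome genes (27.6%), beside 12.3% of all genes. The shares were 10.3% of cytosolic ribosome genes (8 of 78), 7.55% of Zfp zinc finger genes (21 of 278), 7.69% of neuronal function genes (8 of 104) and 6.37% of developmental transcription factors (10 of 157). These differences between lists were not tested. The pairs of the repair, transcription, splicing, respiratory chain and mitochondrial ribosome lists all had H3K4me3 in both cell types (48, 31, 22, 25 and 21 pairs), as had 1105 of all 1178 pairs (93.8%), so these counts are near those of any pairs.

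Polh/Xpo5, a translesion polymerase and a nuclear exporter of microRNA precursors, had 442 NSC reads over 3600 bp and 120 neuron reads over 1600 bp. Rad17/Taf9, a DNA damage checkpoint loader and a TFIID subunit, had 420 reads over 2800 bp and 144 over 2200 bp. Of the 12 pairs with a cell cycle gene, all had H3K4me3 in both cell types, near the 93.8% of all pairs. Aurka/Cstf1, a mitotic kinase and a polyadenylation factor, had 461 reads over 3400 bp and 96 over 2200 bp. Plk1, another mitotic kinase, with an unnamed partner, had 465 reads over 5200 bp in NSCs and 30 over 1000 bp in neurons. Smc4, a condensin subunit paired with the ciliary gene Ift80, had 539 reads over 5400 bp and 140 over 2800 bp.

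Pairs of the 3 mitochondrial lists (ribosome, respiratory chain and import) were marked in both cell types, with Pqbp1/Timm17b below as the exception. Of all pairs 93.8% were so marked. Sdhd/Timm8b, the membrane anchor of succinate dehydrogenase and an import chaperone, with an ETS core in its printed interval, had 453 NSC reads over 3600 bp and 137 neuron reads over 2600 bp. Uqcrh/Lrrc41 (Uqcrh is a complex III subunit) had 522 reads over 5200 bp across both start sites in NSCs, and 75 reads in a 1000-bp neuron peak at neither start site. Atp5h/Kctd2 (Atp5h is an ATP synthase subunit) had 478 reads over 3000 bp and 134 over 2600 bp. Of the mitochondrial ribosome, Mrps18b/Ppp1r10 had 445 reads over 3600 bp in NSCs and 54 over 1200 bp in neurons, and Eme2/Mrps34 430 over 4000 bp and 154 over 2800 bp. The single neuron peak was present at all 21 mitochondrial ribosome pairs and at 23 of 25 respiratory chain pairs, against 930 of all 1178 pairs (78.9%). The median gaps of these lists were 120 and 125 bp. Of all pairs with neuron H3K4me3 and gaps of 101 to 200 bp, 89.0% had such a peak.

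Transcription and RNA processing pairs were alike in this. Taf11/Anks1, which holds a TFIID subunit 98 bp from its partner, had 516 NSC reads over 4600 bp and 84 neuron reads over 1800 bp. Gtf3c4/Ddx31, a TFIIIC subunit and an RNA helicase, had 471 over 3600 bp and 155 over 3200 bp. Med22/Rpl7a joins a Mediator subunit to a ribosomal protein, with 478 and 142 reads. Among splicing pairs, Sf3b3/Cog4, a U2 particle subunit and a Golgi tethering subunit, had 483 and 134 reads, and Srsf3, an SR protein with an unnamed partner, 531 and 169. A single neuron peak covered both start sites in 30 of 31 transcription and 20 of 22 splicing pairs, against 930 of all 1178 pairs (78.9%). The median gaps of these lists were 108 and 125.5 bp, shorter than the 162 bp of all pairs, so these counts do not set the lists apart from other close pairs.

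All pairs of the lists for protein synthesis, folding and turnover were marked in both cell types, again near the share of all pairs. All 8 cytosolic ribosome pairs had a single peak in both cell types, among them Zwilch/Rpl4 (478 and 129 reads) and Rpl9/Lias (430 and 110), where Zwilch is a kinetochore protein and Lias makes lipoic acid. Of all pairs 95.7% had a single peak in NSCs and 78.9% in neurons. Kars/Terf2ip, the lysyl-tRNA synthetase and a telomere protein, had 486 and 146 reads. Nit1/Pfdn2, which holds a prefoldin subunit, had 474 reads over 3000 bp and 124 over 1600 bp. Psma7/Ss18l1 pairs a proteasome core subunit with a subunit of the neuronal BAF complex, with 508 reads over 3800 bp and 172 over 3000 bp. Vps35/Orc6l, a retromer subunit and an origin recognition subunit, had 458 and 141 reads. Zfp146, a zinc finger gene beside a predicted gene, had 933 reads over 14000 bp in NSCs and 109 over 2400 bp in neurons.

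Polycomb genes themselves gave 2 pairs, Suz12 with the predicted Gm10386 (313 and 111 reads) and Rbbp4/Zbtb8os (385 and 113 reads), without H3K27me3.

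Pairs known from textbooks gave 8 members, and 7 of them had a single H3K4me3 peak over both start sites in both cell types. Of all 1178 pairs 1127 had such a peak in NSCs and 930 in neurons. Brca1/Nbr1, a homologous recombination gene and an autophagy receptor, had 399 NSC reads over 3800 bp and 118 neuron reads over 2600 bp. Atm/Npat, the DNA damage kinase and the activator of histone genes, had 337 and 126 reads, both over 3000 bp. Mcm4/Prkdc, a replicative helicase subunit and the DNA-dependent protein kinase, had 330 and 101 reads, and Mrps12/Sars2, a mitochondrial ribosomal protein and the mitochondrial seryl-tRNA synthetase, 243 and 51. In every one of these the neuron reads were lower, as in the library at large. Pdcd10/Serpini1, whose Serpini1 codes for neuroserpin, had 297 reads over 2400 bp in NSCs and 141 over 2800 bp in neurons. Psmb9/Tap1, an immunoproteasome subunit and a peptide transporter of antigen presentation, had 184 and 34 H3K4me3 reads together with H3K27me3 in both cell types (55 and 54 reads). Col4a4/Col4a3, basement membrane collagens 72 bp apart, had no H3K4me3 and an H3K27me3 peak over both start sites (11200 bp with 214 reads in NSCs, 7600 bp with 172 in neurons).

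Histone genes were the exception to the shared peak. Replication-dependent H2A and H2B genes are commonly arranged head to head. A histone gene was in 13 pairs, 8 of them of 2 histone genes, all with NSC H3K4me3 in the region and 11 with it in neurons, but a single NSC peak over both start sites in 7 of 13, against 1127 of 1178 for all pairs. Their median NSC density was 50 reads per kb against 110 for all pairs. The most reads were at Hist1h4h with an unnamed partner (431 in NSCs, 110 in neurons) and at Hist3h2bb-ps/Hist3h2a (274 over 3000 bp, 156 over 4600 bp). At Hist1h2ae/Hist1h2bg the NSC peak (46 reads) lay at Hist1h2ae and the neuron peak (87 reads) at Hist1h2bg. At Hist1h2ag/Hist1h2bj, Hist1h2bf/Hist1h2ad and Hist1h2bl/Hist1h2ai the NSC peak lay beside the start sites and covered neither. Histone genes are near-identical copies, to which the counting of short reads may not assign reads uniquely, so their values are uncertain.

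H3K4me3 found in NSCs and not in neurons, called NSC-only here, was rare at pairs at the deposited FDR. It was seen at 45 regions, which is 3.91% (2.87 to 5.20) of the 1150 with NSC H3K4me3, against 13.6% of all start sites with it and 15.6% of genes in no pair (13.97% with a symbol). Of all 18778 start sites 9.55% were NSC-only, of all pairs 3.82%. The 45 had weak NSC peaks, with a median of 53 reads per kb (highest 103) against 111 in the 1105 pairs marked in both. NSC H3K27me3 lay at 19 of the 45 (42.2%) and at 52 of the 1105 (4.71%). An unnamed gene was in 24 of the 45, and 10 were pairs of named genes.

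NSC-only H3K4me3 was set beside NSC read density in 5 classes. In the lowest class 37 of 95 pairs (38.9%) and 1310 of 2459 genes in no pair (53.3%) were NSC-only. In the next it was 6 of 188 (3.19%) and 255 of 2328 (11.0%), then 2 of 210 (0.952%) and 82 of 2177 (3.77%), and in the top 2 classes 0 of 289 and 0 of 368 pairs against 41 of 2078 and 16 of 1916. The share was lower at pairs within each class, and 32% of pairs but 17.5% of other genes were in the top class. With all peaks held to an FDR under 1e-20 the number of NSC-only pairs was 287 (24.4% of all pairs, against 3.82% at the deposited FDR). With no flank outside the start sites it was 118 (10.0%). Other genes were not counted at these settings, so whether pairs differ from them there is unknown.

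**Figure D5:**
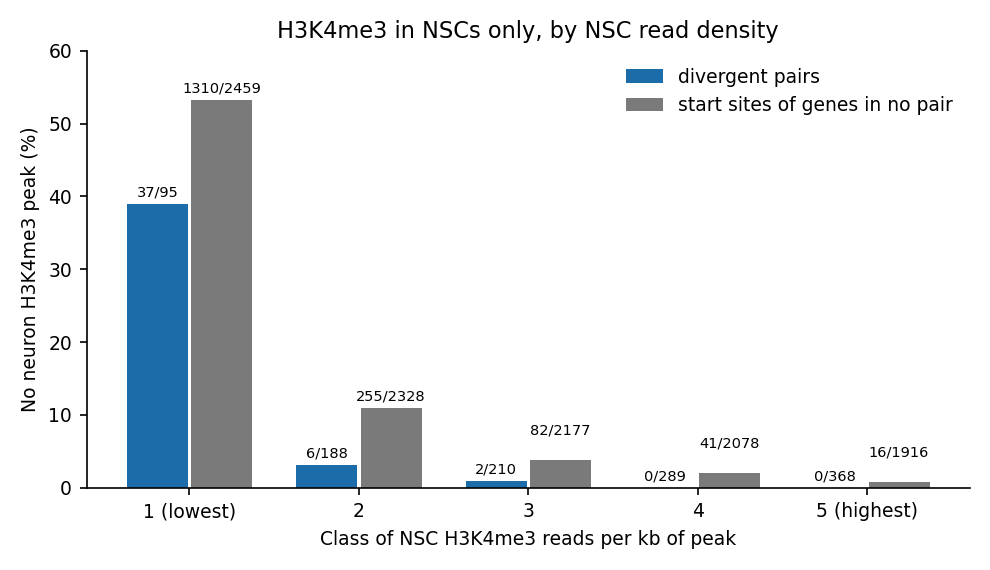
Percent of marked regions with NSC H3K4me3 and no neuron H3K4me3, by class of NSC reads per kb of peak, for divergent pairs and for start sites of genes in no pair, with the counts on the bars. The share goes from 38.9% to 0% at pairs and from 53.3% to 0.835% at other genes.

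Of the NSC-only pairs of named genes, Hist1h2ah/Hist1h2bk (160 NSC reads over 2800 bp) and Hist1h2ag/Hist1h2bj (150 over 3000 bp) are histone pairs. Pqbp1/Timm17b, a splicing-linked protein and an inner membrane translocase subunit on the X chromosome, had 159 reads over 2000 bp and no neuron peak within 55396 bp. Mtcp1/Brcc3, also on X, where Brcc3 is a deubiquitinase of the BRCA1-A complex, had 137 reads over 2400 bp, with the nearest neuron peak at 33528 bp. Both NSC peaks were wider than the median of the NSC-only pairs (1600 bp), and narrower than that of all pair peaks (2600 bp). On X, 4 of 22 marked pairs (18.2%) and 102 of 357 marked genes in no pair (28.6%) were NSC-only, and 2 of the 4 pairs share Brcc3. Cyhr1/Kifc2 (142 reads) had H3K4me3 and H3K27me3 in NSCs and neither in neurons, with a neuron H3K4me3 peak 2548 bp away. Pcsk4/Reep6 (101 reads), Lyzl4/Vipr1 (72) and Rom1/Eml3 (62) hold genes of testis, gut peptide signalling and photoreceptors. The NSC-only region with the most reads, chosen after its value was seen, held Ube2c, a ubiquitin-conjugating enzyme of mitosis, with an unnamed partner (350 reads over 3400 bp).

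Both pairs with a Hox gene were NSC-only. Of all 38 Hox start sites 19 had H3K4me3 in NSCs and 9 in neurons, so a lower neuron count was not particular to pairs. H3K27me3 lay at 33 of the 38 in NSCs and 32 in neurons. Hoxa2 with an unnamed partner had 119 reads over 3400 bp and no H3K27me3, and Hoxd1 with an unnamed partner had 70 reads over 1200 bp inside an NSC H3K27me3 domain of 143400 bp with 5057 reads. In neurons that start site lay in an H3K27me3 peak of 4800 bp with 133 reads.

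H3K4me3 in neurons and not in NSCs, called neuron-only, was seen at 3 pairs (0.255%, against 0.831% of all start sites), none of them a pair of named genes. That is 3 of the 28 pairs without NSC H3K4me3 (10.7%, 2.27 to 28.2), against 2.81% of all start sites without it. They hold Zdbf2, an imprinted gene (76 reads), Cdh8, a neuronal cadherin (74 reads, with a partner named by a clone), and Ptgs2, the inducible cyclooxygenase (45 reads). Zdbf2 lay in the same long H3K27me3 domain in both cell types, 85600 bp in NSCs and 73800 bp in neurons, and Cdh8 in peaks of 8400 and 11200 bp. The nearest NSC H3K4me3 peak lay 22695 bp from the Zdbf2 start sites and 181772 bp from those of Cdh8. Counts of 3 leave the share between 0.0525% and 0.742%.

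H3K27me3 was less common at pairs than at other genes. It lay at 91 regions in NSCs (7.72%, 6.26 to 9.40) and 74 in neurons (6.28%, 4.96 to 7.82), against 19.2% and 17.9% of all start sites and 20.8% and 19.5% of genes in no pair. Both cell types had it at 65 pairs, NSCs only at 26 (28.6% of 91, against 25.3% of all start sites with the mark, and 2.21% of all pairs against 4.85%) and neurons only at 9 (0.764% against 3.56%, or 0.828% of the 1087 pairs without the mark in NSCs against 4.4%). The nearest neuron H3K27me3 peak lay a median of 3941.5 bp from the 26 NSC-only pairs, and only 8 of them had none within 10 kb. An unnamed gene was in 54 of the 91 pairs and both genes were named in 17. The single H3K27me3 peak covered both start sites in 52 of 91 pairs (57.1%) and neither in 32 (35.2%), so at these it ended within 1 kb of the start sites. Scored for each start site within 1 kb, the peak covered the start site in 109 of 177 marked pair genes (61.6%). At marked genes in no pair it did so in 81.4%.

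The place of H3K27me3 went with the density of H3K4me3. Where an NSC H3K27me3 peak covered both start sites, 34 of 52 pairs had H3K4me3, with a median of 55.8 reads per kb. Where it touched the region but neither start site, 30 of 32 had H3K4me3, at 94.1 reads per kb, and pairs without H3K27me3 had 111. Neuron H3K4me3 was present at 20 of the 34 and at 27 of the 30.

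Both marks lay at 71 regions in NSCs (6.03%, against 8.53% of all start sites) and at 40 in neurons (3.40%, against 4.59%). Of the 71, 32 had both in neurons (45.1%), 20 H3K4me3 alone (28.2%), 15 H3K27me3 alone (21.1%) and 4 neither (5.63%). Of all 1601 start sites with both marks in NSCs the shares were 36.9%, 20.9%, 37.3% and 4.93%. These differences were not tested. H3K4me3 alone remained at Ntrk3, the receptor of neurotrophin 3 (298 and 96 H3K4me3 reads, with 54 H3K27me3 reads in NSCs), at Atxn1, the ataxin 1 gene (363 and 98, with 89), at Sobp (341 and 147, with 48) and at Trpm8, the cold receptor (959 and 166, with 460). Each of these 4 has a partner named by a clone or prediction. The H3K27me3 peak near Trpm8 had 551 input reads, more than the 460 immunoprecipitated ones, so it stands on a raised input. H3K27me3 alone remained at Prdm16, a transcription regulator (99 NSC H3K4me3 reads; H3K27me3 over 20200 and then 6400 bp), Lmx1b, a LIM homeobox gene (96 reads; 18200 and 800 bp), and Tuft1 (132 reads; 3000 and 1400 bp). At Atxn7l1 (213 NSC H3K4me3 reads) the H3K27me3 peak measured 2000 bp in NSCs, and the neuron peak 46800 bp.

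The widest NSC H3K27me3 peaks at pairs with the mark in both cell types, after Hoxd1 and Zdbf2, were at Plag1/Chchd7, a growth-related zinc finger gene and a mitochondrial gene (56200 bp with 2273 reads in NSCs, 3200 bp with 59 in neurons), Foxf2 (35600 and 27000 bp), Bcl11a (32400 and 27000 bp), Fam78b (32000 and 15200 bp), Hmx1 (30800 and 32400 bp) and the class I histocompatibility gene H2-T10 (29600 and 28000 bp). Foxf2, Bcl11a and Hmx1 are transcription factors. Plag1/Chchd7 also had a single NSC H3K4me3 peak over both start sites (213 reads) and a neuron peak at Chchd7 only (74 reads). The neuron peak was the narrower in 53 of the 65. NSC-only H3K27me3 was seen at the named pairs Eftud2/Ccdc103 (232 reads, at neither start site), Atp7b/Alg11, a copper transporter and a glycosylation enzyme (169 reads, at Atp7b), Cyhr1/Kifc2 (59) and Cacna1h/Lmf1 (48). Neuron-only H3K27me3 was seen at the named pairs Fhod1/Slc9a5 (40 reads over both start sites, where H3K4me3 had 374 reads in NSCs and 24 in neurons, at neither start site) and Spry4/Arhgap26 (38 reads).

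Developmental and neuronal genes in pairs nearly all faced an unnamed, predicted or clone-named gene. Of 10 pairs with a developmental transcription factor, 10 had NSC and 9 neuron H3K4me3, and 4 and 3 had H3K27me3. Of all pairs 97.6% and 94.1% had H3K4me3, and 7.72% and 6.28% had H3K27me3. Of all 157 start sites of the list, 119 in NSCs and 84 in neurons had H3K4me3, and 103 and 100 had H3K27me3. Sox9, a stem cell and glial regulator, had 460 H3K4me3 reads in NSCs and 130 in neurons, Zic2 584 and 173, Emx2, a forebrain homeobox gene, 339 and 123, and Sox6 430 and 224, without H3K27me3. Sox3, on X, had 332 reads over 4600 bp in NSCs and 28 over 600 bp in neurons, at neither start site. Lhx1, a LIM homeobox gene, had both marks in both cell types, with H3K27me3 over 20000 bp in NSCs and 5000 bp in neurons.

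Of 8 pairs with a neuronal function gene, 6 had H3K4me3 in both cell types, against 93.8% of all pairs. Of all 105 start sites of the list, 70 had it in NSCs and 60 in neurons. H3K27me3 lay at 3 of the 8 pairs in NSCs and 1 in neurons, and at 52 and 38 of the 105 start sites. Nlgn2, an inhibitory synapse adhesion protein, had 392 and 150 reads over 3200 and 4400 bp, Dpysl2, an axon growth protein, 387 and 160 over 3600 and 3800 bp, and Nrxn2, a presynaptic adhesion protein, 106 and 96 over 2000 and 3000 bp. In these 3 the neuron peak was the wider, as in 143 of 1105 pairs in all. Syt11, a synaptotagmin, had 196 and 40 reads over 1800 and 1000 bp. The vesicular transporter gene Slc32a1 had H3K27me3 alone in both cell types (504 and 428 reads), and the synaptic vesicle gene Sv2b had H3K27me3 in NSCs (122 reads) and neither mark in neurons.

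Finally, 8 regions had neither mark in NSCs and 36 in neurons, and 6 had no peak in any of the 4 lists. The named genes of those 6 include Runx3, Cd163, Pth2r and Hmgb4, all with an unnamed partner. Beside the Trpm8 pair above, the region of Sp110 on chromosome 1 stood on a raised input in all 4 lists: its NSC H3K4me3 peak held 2300 reads against 2120 input reads, and its NSC H3K27me3 peak 1981 against 2125.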

How the data were processed

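Chromatin immunoprecipitation was done after 1% formaldehyde fixation and shearing to about 300 bp, per the labels' protocols. Reads were handled with Bowtie, FastQC, SICER and SAMtools on build mm9, per the submitters' processing notes, which give no versions. The authors deposited 1 list of SICER peaks per library, in steps of 200 bp and with an FDR under 0.001, that gives for each peak a read count in the immunoprecipitate and in the input, a fold enrichment ratio, an FDR and a p-value. Counts are raw and not scaled for depth. How reads with several matches were treated is not given in the sources used here.

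Pairs were found from the start and end positions in the authors' gene tables, unique by feature. A region or start site was marked if a peak came within 1000 bp by at least 1 bp; where several did, the peak with the most overlap gave the values. The call was tested on simulated data (0 of 200 planted pairs wrong). With 1 library per group, shares have exact Clopper-Pearson 95% intervals that cover counting error only, and no test was made. Python 3.11.15, pandas 2.3.3 and scipy 1.17.1 were used. Pairs and gene lists were chosen with earlier results of these data known. Named pairs are those highest by density, width or reads in each class, the textbook pairs, up to 4 pairs per list by reads and the smallest gaps. Outside this rule, and chosen after their values were seen, are Cdh8, Ptgs2, Ube2c, Slc32a1, Sv2b, Syt11, Nrxn2, Lhx1, Sox3, Sp110, the 6 regions without a peak and 3 of the histone pairs. A few pairs that this rule names are not reported here.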

Additional observations from a re-analysis of the deposited data

How the results depend on the processing

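Of 150 recomputed values 114 moved by at most 1.5 times, among them every count of pairs with H3K4me3. That limit is wide: at an FDR under 1e-20, neuron H3K4me3 went from 1108 to 851 of 1178 pairs (72.2%). Single neuron H3K4me3 peaks over both start sites went from 930 to 744 (63.2%). No paired analysis was possible because each cell type has 1 library per antibody. With all peaks at an FDR under 1e-20, H3K27me3 lay at 37 neuron pairs, both marks at 35 NSC and 9 neuron pairs, H3K4me3 was NSC-only at 287 and neuron-only at 1, a single neuron H3K27me3 peak covered both start sites at 26, and H3K27me3 peaks had medians of 11400 bp and 261.5 reads in NSCs and 9800 bp and 219 reads in neurons. With equal numbers of peaks per mark, neuron-only H3K4me3 was at 6 pairs and neuron-only H3K27me3 at 5. With no flank, H3K27me3 lay at 59 NSC pairs, both marks at 41 and 20, and H3K4me3 was NSC-only at 118 and neuron-only at 5. With a 5 kb flank, both marks lay at 68 neuron pairs and H3K27me3 was neuron-only at 18. In the 883 pairs with gaps up to 300 bp, H3K27me3 lay at 56 and 49, both marks at 44 in NSCs, H3K4me3 was NSC-only at 29, H3K27me3 NSC-only at 14, and a single NSC H3K27me3 peak lay at 32; fewer pairs enter here. In the 787 pairs with both symbols, H3K27me3 lay at 37 and 32, both marks at 32 and 19, H3K4me3 was NSC-only at 21 and neuron-only at 1, H3K27me3 NSC-only at 11, and single H3K27me3 peaks lay at 15 and 18; here too fewer pairs enter. Without chromosome 1, neuron-only H3K4me3 was at 1 pair. Where no neuron peak was allowed within 10 kb, H3K27me3 was NSC-only at 8. Apart from the smaller sets of pairs, the cause was not tested. The depth of the neuron H3K4me3 library is a limit: it had 983266 reads in peaks against 3623654 in NSCs, so a weak neuron peak may be missing at this depth.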

Other observations

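The authors' nearest-gene tables give a peak to a gene, and at divergent pairs they often split a shared peak. Of the 1127 pairs with both start sites under a single NSC H3K4me3 peak, the table named that peak for both genes in 922 (81.8%), for exactly 1 in 186 (16.5%) and for neither in 19. In neurons these numbers were 753 (81.0%), 164 and 13 of 930. For H3K27me3 the shared peak was named for both genes in 21 of 52 NSC pairs and 11 of 45 neuron pairs, and for neither in 15 and 23.

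Of the 562 pairs whose genes are both in the RefSeq promoter table, 502 (89.3%) also lay head to head within 1000 bp in RefSeq of build GRCm38.p6. The interval was read only where it was not very short and fitted within the 250 bases before the start site, which left 336 pairs. Both strands come from the same build, so their identity there was fixed in advance and is no result. The median GC content of these intervals was 64.4%. The 53 matched promoters of pairs with NSC-only H3K4me3 held the ETS core in 20.8% (11 promoters), against 40.9% of all matched pair promoters. Also lower were SP/KLF (56.6% against 69.3%), CRE (11.3% against 17.2%), YY1 (3.77% against 9.32%) and TATA (3.77% against 5.08%). NRF1 and TTGGCGC were at 0% against 7.95% and 6.32%. CCAAT (54.7% against 43.5%) and TTCCCGC (11.3% against 10.9%) were higher. Windows of partners overlap, and these contrasts were not tested. The median ratio of observed to expected CpG in the 53 was 0.67 against 0.857.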
